A study of Mus musculus with 8 samples.

Results

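The 10 genes described here are neighbours of Shank3 on mouse chromosome 15: Rabl2, Acr, Arsa, Mapk8ip2, Mapk11, Mapk12, Plxnb2, Dennd6b, Tubgcp6 and Sbf1. They are named genes within 500 kb of Shank3, chosen by position and name, out of 24420 genes counted in every library. Earlier results of these data were known when they were chosen. The study asked how gene expression in prefrontal cortex differs between Shank3-deficient and wild-type mice, and what the histone deacetylase inhibitor romidepsin does to it. Poly(A) RNA from slices of this cortex was sequenced in 8 libraries of 3 groups. The romidepsin group (2 libraries) came from heterozygous Shank3+/ΔC males, in which 1 copy of Shank3 lacks exon 21 and so codes for a protein cut short at its C terminus. These mice were given 0.25 mg/kg romidepsin intraperitoneally each day for 3 days and were killed 1 day after the final injection. The saline group (3 libraries) came from males of the same genotype given saline on the same schedule, so both treated groups carry the deletion. The wild-type group (3 libraries) came from male littermates, for which the labels name no treatment. All mice were 5 to 6 weeks old per the sample labels. The labels do not say whether each library is a separate animal, so each p-value reflects library-to-library spread, which may be technical.

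Shank3 codes for a scaffold protein of the postsynaptic density of excitatory synapses. In humans the matching stretch of DNA lies near the end of a chromosome, and its loss, which takes SHANK3 together with neighbouring genes, causes Phelan-McDermid syndrome. The mouse allele studied here removes an exon inside Shank3, in its 3′ part, which faces Acr and Rabl2. The genes around Shank3 have unrelated roles: a ciliary GTPase, a sperm protease, a lysosomal enzyme, kinases and a scaffold of the stress-activated MAP kinase pathways, an axon guidance receptor, regulators of membrane traffic and a microtubule nucleation factor.

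The 250 bases before the transcription start of Mapk11 and Rabl2 are shown because these were the 2 genes of the 10 whose Shank3-deficient libraries all lay below every wild-type library. The sequences are from RefSeq, build GRCm38.p6, and both genes lie on the minus strand. The Mapk11 stretch is chr15:89149607-89149856 and the Rabl2 stretch is chr15:89591924-89592173, each written 5′ to 3′ along its gene. The start used for Rabl2 lies inside the RefSeq span of the gene given below, so the last bases of its stretch fall within that span. Capitals mark the GC box GGGCGG read on either strand.
Mapk11: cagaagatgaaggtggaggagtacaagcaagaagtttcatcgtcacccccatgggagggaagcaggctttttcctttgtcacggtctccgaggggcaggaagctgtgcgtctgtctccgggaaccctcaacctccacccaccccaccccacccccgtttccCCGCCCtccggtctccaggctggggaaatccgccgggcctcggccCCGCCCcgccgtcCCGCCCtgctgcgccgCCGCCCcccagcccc
Rabl2: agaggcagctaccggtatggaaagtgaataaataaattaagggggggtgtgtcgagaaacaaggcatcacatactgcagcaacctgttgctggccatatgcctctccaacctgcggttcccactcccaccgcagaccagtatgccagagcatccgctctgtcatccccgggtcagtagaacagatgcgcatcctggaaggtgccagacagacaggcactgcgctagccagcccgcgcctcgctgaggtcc
The Mapk11 stretch held 4 GC boxes and 18 CG dinucleotides, and the Rabl2 stretch held 0 GC boxes and 11 CG dinucleotides. Over 32851 mouse promoters of the same length, 32.7% held a GC box and the median count of CG dinucleotides was 6. The share of G and C was 68.0% before Mapk11 and 57.2% before Rabl2, against a median of 52.4%. The TATA box TATAAA, found in 12.4% of promoters on either strand, and the CCAAT box CCAAT, found in 33.8%, were in neither stretch. The RefSeq table matched 9 of the 10 genes, all but Acr, with 10 entries since Plxnb2 has a second start. A GC box stood in 8 of these 10 entries, a CCAAT box in 1 and a TATA box in 0. The entry of Arsa was the other one without a GC box, and with 4 CG dinucleotides it was the one below the median of all promoters. These matches describe letters and show no factor bound there.

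Shank3 itself spans chr15:89493013-89560261 on the plus strand. Acr and Rabl2 lie on its telomeric side, the side of the 3′ end of Shank3. Acr starts 8.07 kb away (chr15:89568326-89578853, plus strand) and Rabl2 lies 22.3 kb away (chr15:89582527-89591960, minus strand). The other 8 genes lie on the centromeric side. Arsa (chr15:89472476-89477424, minus strand) is 15.6 kb away and Mapk8ip2 (chr15:89453911-89462447, plus strand) is 30.6 kb away. Sbf1 follows at 178 kb (chr15:89288236-89315311, minus strand). A cluster of 5 genes on the minus strand comes next: Dennd6b at 295 kb (chr15:89182213-89198427), Plxnb2 at 311 kb (chr15:89155546-89182018), Mapk11 at 343 kb (chr15:89142482-89149606), Mapk12 at 351 kb (chr15:89130584-89141577) and Tubgcp6 at 370 kb (chr15:89099097-89123208).

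Reads of 2 of the 10 genes can mix with those of another gene, since the strand setting of the counting is not given in the sources used here. Arsa shares 690 exonic bases, 19.8% of its exons, with the antisense RNA C230037L18Rik. Tubgcp6 shares 998 exonic bases, 13.1% of its exons, with Selo (Selenoo in RefSeq). Of the 50-base words in their transcripts, 15.8% for Arsa, 8.01% for Tubgcp6, 2.1% for Mapk12 and 0.383% for Dennd6b also occur in a transcript of another gene. For Rabl2, Acr, Mapk8ip2, Mapk11, Plxnb2 and Sbf1 that share was 0.

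Reads counted on genes ranged from 7783537 to 15156318 per library, and 14809 genes passed the filter on low counts. Saline replicate 2 and wild-type replicate 3 lay at opposite ends of the first principal component, which held 26.6% of the variance. Results that rest on these libraries are also given without them. The label calls the cells neurons, but transcripts of astrocytes, oligodendrocytes, microglia and vessels were counted in every library. Across all genes, 1 passed an adjusted p of 0.05 with both Shank3-deficient groups against wild type, 1 with saline against wild type, 0 with romidepsin against saline and 1 with romidepsin against wild type. Reads of Shank3 averaged 299.5 ± 27.2 CPM in the 5 Shank3-deficient libraries and 319 ± 26.1 CPM in the 3 wild-type libraries (SD), with a log2 fold change of -0.08 (SE 0.08) and an edgeR adjusted p of 0.919. CPM are read counts per library total after TMM scaling. A count over the whole gene in mice with 1 intact copy checks the deletion of 1 exon poorly.

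All 10 neighbours passed the filter, but Acr reached the filter's level of 0.901 CPM in only 2 libraries, both of the saline group. Per kilobase of exon, the mean level over the 8 libraries was highest for Mapk8ip2 at 51.6 ± 2.91 CPM per kb (SD). Sbf1 stood at 40.2 ± 1.31 and Mapk11 at 30.2 ± 4.86 CPM per kb. Each of these 3 genes was separated from the next by more than the sum of their SDs. Rabl2 at 12.2 ± 2.41, Dennd6b at 11.6 ± 1.88, Arsa at 10.5 ± 0.996, Plxnb2 at 10.2 ± 1.11 and Tubgcp6 at 8.72 ± 0.821 CPM per kb followed, and each was within the SDs of its neighbour in this order. Mapk12 at 2.58 ± 0.805 and Acr at 0.537 ± 0.255 CPM per kb were the lowest, each lower than the gene above it by more than the sum of the SDs. Sbf1 varied least over the libraries, with a coefficient of variation of 3.27%, and Acr most, with 47.5%. Between these, the coefficient was 19.7% for Rabl2 and 16.1% for both Mapk11 and Dennd6b.

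**Figure D1:**
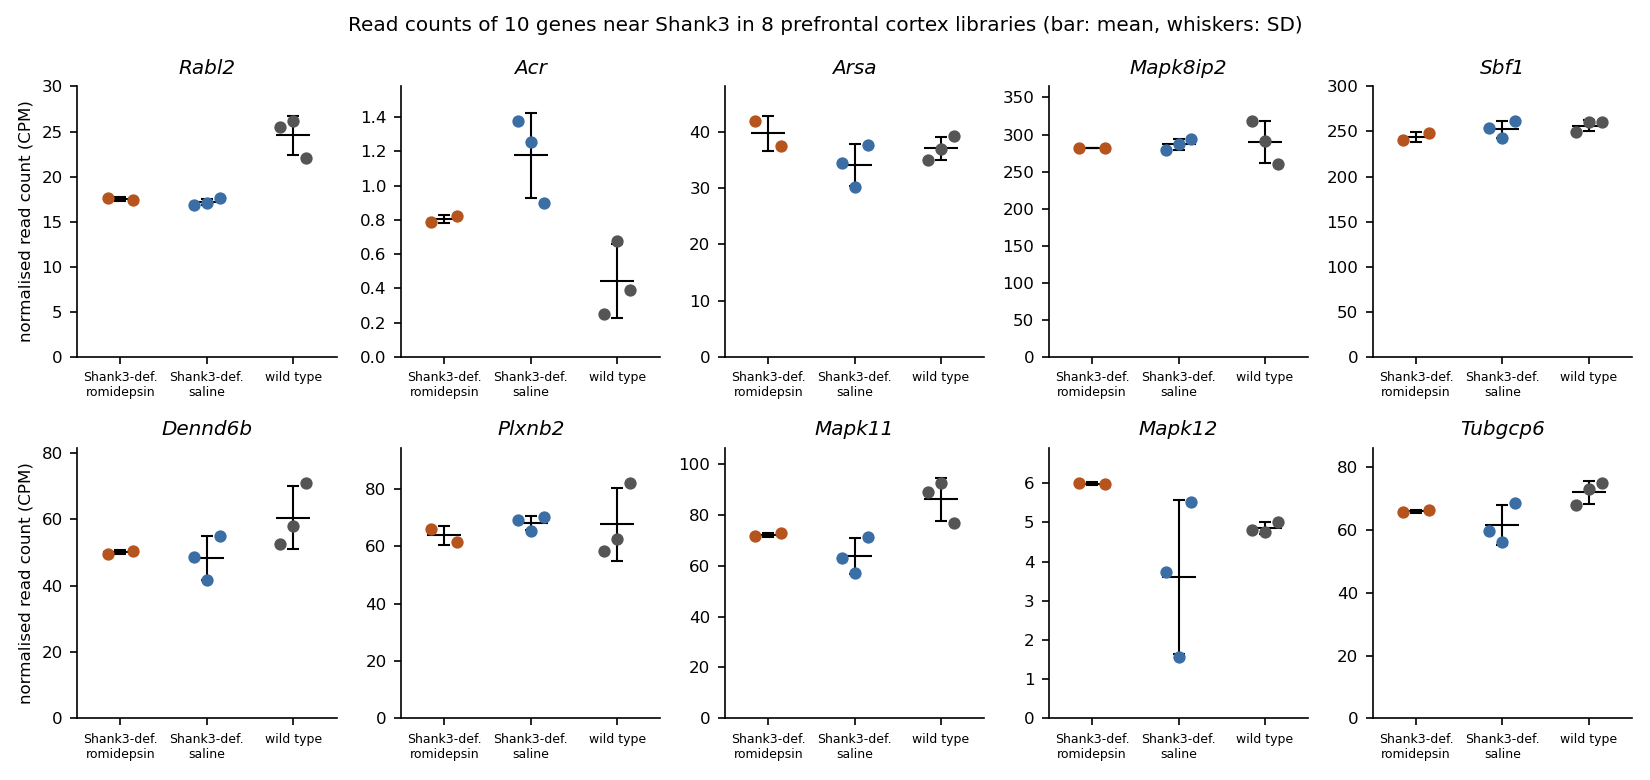
Level of each of the 10 genes in every library (y axis, CPM, starting at 0 in each panel), by group (x axis: romidepsin, saline, wild type); points are libraries, bars are group means and whiskers are SD. The 5 Shank3-deficient libraries of Rabl2 sit between 16.8 and 17.6 CPM, below all 3 wild-type libraries, and those of Mapk11 sit between 57.2 and 72.8 CPM, also below all 3.

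The question of the first comparison is whether genes beside the altered Shank3 copy differ between Shank3-deficient mice of either treatment and wild-type mice. The labels name no injections for wild-type mice, so genotype and injection cannot be told apart in this comparison. Rabl2 and Mapk11 were lower in every Shank3-deficient library than in every wild-type library, Acr was higher in every one, and the other 7 genes overlapped between the groups. By edgeR's quasi-likelihood test with Benjamini-Hochberg adjustment over all 14809 genes, 0 of the 10 passed an adjusted p of 0.05, against 0.00675% of all tested genes, and DESeq2 and limma-voom also passed 0. Unadjusted, 5 of the 10 had p under 0.05, with 4 lower (Rabl2, Mapk11, Dennd6b, Tubgcp6) and 1 higher (Acr), while 3.74% of all tested genes were lower and 2.61% higher at that level, 6.35% together. Of the 9 genes at or above the filter's level in every library, which leaves out Acr, 4 were under that p. Of the 12 other tested genes within 500 kb of Shank3, 0 were under it and 0 lacked overlap. No overlap with all libraries lower was seen for 2 of 10 genes and with all higher for 1 of 10, against 2.48% of tested genes in each direction and 4.97% in either. In all, 9 of the 10 had a negative fold change of any size, as did 49.2% of tested genes. The median log2 fold change was -0.06 over the 10 and 0.00 over all genes.

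Rabl2, a small RAB-like GTPase that binds the intraflagellar transport machinery at the base of cilia, showed the smallest p of the 10. Its level was 17.6 and 17.4 CPM in romidepsin replicates 1 and 2, 16.8, 17.1 and 17.6 CPM in saline replicates 1 to 3, and 25.5, 26.1 and 22.1 CPM in wild-type replicates 1 to 3. The 5 Shank3-deficient libraries were close together, within 1 CPM of each other, and the lowest wild-type library lay above all of them. The mean was 17.3 ± 0.337 CPM in Shank3-deficient mice (SD, n = 5) and 24.6 ± 2.17 CPM in wild-type mice (SD, n = 3). The fold was 0.705, with a 95% interval from 0.611 to 0.812, and the log2 fold change was -0.505 ± 0.10 (SE). It ranked as the 7th smallest p of all genes, with an edgeR adjusted p of 0.232. The reads behind it numbered 179 and 169 in romidepsin libraries, 257, 163 and 137 in saline libraries, and 303, 347 and 282 in wild-type libraries. With 137 to 257 reads, counting noise alone would spread the Shank3-deficient libraries more widely, so their closeness may not hold in further libraries. The log2 fold change lay between -0.58 and -0.46 in all 15 alternative settings, with adjusted p from 0.0121 to 0.997. It passed in 2 of them, at adjusted p = 0.0392 by edgeR without wild-type replicate 3, where 0.0752% of tested genes passed, and at 0.0121 without both end libraries of the first principal component, where 0.464% passed. Both of these settings left out wild-type replicate 3, the lowest of the wild-type libraries for this gene. Leaving out that library alone also raised the genes passing over the whole table from 1 to 11. What made Rabl2 pass there was not tested. In bulk tissue, fewer cells of a type and less RNA per cell cannot be told apart.

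Acr, which codes for acrosin, a protease of the sperm acrosome, was near the limit of detection. It had 8 and 8 reads in romidepsin libraries, 21, 12 and 7 in saline libraries, and 3, 9 and 5 in wild-type libraries. As CPM these were 0.788 and 0.823 with romidepsin, 1.38, 1.26 and 0.898 with saline, and 0.253, 0.678 and 0.392 in wild type. All 5 Shank3-deficient libraries were above all 3 wild-type libraries, although wild-type replicate 2 had more reads than 3 of them. The fold was 2.18 with a 95% interval from 1.12 to 4.24 (edgeR adjusted p = 0.727). Since Acr passed the filter only through 2 saline libraries, this difference gives no support to a change at the locus.

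Arsa and Mapk8ip2, the nearest genes on the centromeric side, overlapped between the groups. Arsa codes for arylsulfatase A, the lysosomal enzyme that removes sulfate from the myelin lipid sulfatide. Its level was 41.9 and 37.6 CPM with romidepsin, 34.5, 30.2 and 37.6 CPM with saline, and 35.0, 36.9 and 39.2 CPM in wild type. Its log2 fold change for both Shank3-deficient groups against wild type was -0.01 ± 0.09 (SE), with an interval of the fold from 0.869 to 1.13. The overlapping C230037L18Rik averaged 2.59 ± 0.688 CPM in Shank3-deficient and 1.99 ± 1.04 CPM in wild-type libraries, a small fraction of Arsa. Mapk8ip2 codes for a scaffold (JIP2) that gathers kinases of the JNK pathway and is abundant in brain. It had 282 and 282 CPM with romidepsin, 279, 287 and 294 CPM with saline, and 318, 291 and 260.4 CPM in wild type. Its fold was 0.981, with a 95% interval from 0.882 to 1.09, and the wild-type libraries spread more widely than the 5 others. Without wild-type replicate 1, the highest, its log2 fold change was 0.04 in place of -0.03.

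Mapk11 codes for p38 beta, a stress-activated kinase of the p38 family. Its level was 71.6 and 72.8 CPM in romidepsin replicates, 63.2, 57.2 and 71.2 CPM in saline replicates, and 89.2, 92.6 and 76.7 CPM in wild-type replicates. All Shank3-deficient libraries were lower than all wild-type libraries, and saline replicate 3 lay close to both romidepsin libraries. The mean was 67.2 ± 6.75 CPM (SD, n = 5) in Shank3-deficient mice and 86.2 ± 8.41 CPM in wild-type mice (SD, n = 3). The fold was 0.787, with a 95% interval from 0.695 to 0.892, and the edgeR adjusted p was 0.602 at rank 25 among all genes. Over the 15 alternative settings the log2 fold change ran from -0.43 to -0.29, with adjusted p from 0.0110 to 0.998. It passed in 1 of them, at edgeR adjusted p = 0.0110 without saline replicate 2 and wild-type replicate 3.

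Mapk12, the adjacent gene for p38 gamma, did not share this pattern. It had 6.01 and 5.97 CPM with romidepsin, 3.74, 1.57 and 5.52 CPM with saline, and 4.80, 4.75 and 5.02 CPM in wild type. Saline replicate 2 stood far below the others, with 15 reads. The fold for both Shank3-deficient groups against wild type was 0.951, with a 95% interval from 0.641 to 1.41. Without saline replicate 2 the log2 fold change was 0.09, in place of -0.07.

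Dennd6b and Tubgcp6 were lower on average and overlapped. Dennd6b belongs to the DENN-domain proteins, which activate Rab GTPases. Its level was 49.6 and 50.5 CPM with romidepsin, 48.5, 41.6 and 54.9 CPM with saline, and 52.5, 57.8 and 70.9 CPM in wild type. Saline replicate 3 lay above the lowest wild-type library, and the fold was 0.813 with a 95% interval from 0.695 to 0.95 (edgeR adjusted p = 0.656). Without wild-type replicate 3, the highest library, the log2 fold change was -0.18 in place of -0.30, and without both end libraries it was -0.12. Tubgcp6 codes for a subunit of the gamma-tubulin ring complex, which nucleates microtubules. It had 65.6 and 66.3 CPM with romidepsin, 59.8, 56.2 and 68.5 CPM with saline, and 67.9, 73.1 and 75 CPM in wild type. Again saline replicate 3 lay just above the lowest wild-type library, and the fold was 0.883 with an interval from 0.788 to 0.990 (edgeR adjusted p = 0.755). Its overlapping neighbour Selo averaged 28.5 ± 2.91 CPM in Shank3-deficient and 28.3 ± 1.73 CPM in wild-type libraries.

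Plxnb2 and Sbf1 had folds near 1. Plxnb2 codes for plexin B2, a receptor for class 4 semaphorins. Its level was 66.2 and 61.5 CPM with romidepsin, 69.1, 65.5 and 70.2 CPM with saline, and 58.3, 62.6 and 82.2 CPM in wild type. Wild-type replicate 3 was the highest of all 8 libraries and wild-type replicate 1 the lowest, and the fold was 0.975 with a 95% interval from 0.841 to 1.13. Its log2 fold change was 0.12 without wild-type replicate 3, in place of -0.04. Sbf1 codes for a catalytically inactive myotubularin (MTMR5) with a DENN domain. It had 240.2 and 248 CPM with romidepsin, 254, 242 and 261 CPM with saline, and 249, 259.9 and 260.1 CPM in wild type. With a fold of 0.968 and an interval from 0.883 to 1.06, it was the most narrowly bounded of the 10.

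Saline replicate 2 was the lowest of the 8 libraries for 5 of the 10 genes, namely Arsa, Mapk11, Mapk12, Dennd6b and Tubgcp6, and also for Shank3. It was the lowest for 21.1% of all tested genes. Wild-type replicate 3 was the highest for 3 of the 10, Plxnb2, Dennd6b and Tubgcp6, and for 21.1% of all tested genes. Without saline replicate 2, the log2 fold change of both Shank3-deficient groups against wild type was 0.027 for Arsa, in place of -0.012. For Tubgcp6 it was -0.15 without saline replicate 2, in place of -0.18, and leaving out wild-type replicate 3 gave -0.16.

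**Figure D2:**
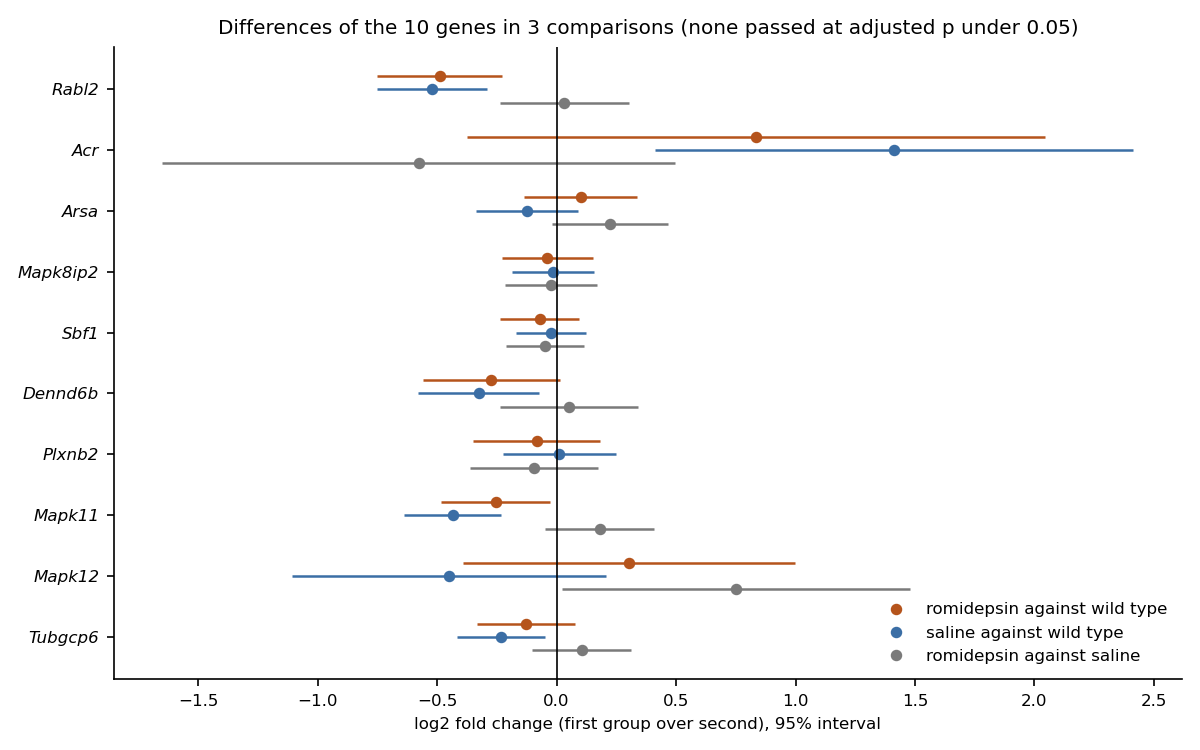
Log2 fold change with its 95% interval (x axis) for each of the 10 genes (y axis) in romidepsin against wild type, saline against wild type and romidepsin against saline (colours). Rabl2 lies left of 0 with its whole interval in both comparisons with wild type, at -0.49 with romidepsin and -0.52 with saline, as does Mapk11 at -0.26 with romidepsin and -0.44 with saline, and no gene passed an adjusted p of 0.05.

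The second comparison sets saline-treated Shank3-deficient mice against wild-type mice. The labels name no injections for wild-type mice, so genotype and injection cannot be told apart in it either. The same holds for romidepsin against wild type, where the drug is added. The second comparison shares its libraries with the first, so its values repeat much of the first. By edgeR, 0 of the 10 genes passed an adjusted p of 0.05 (0.00675% of tested genes did), limma-voom passed 0, and DESeq2 passed 1, Mapk11 at adjusted p = 0.0454, where DESeq2 passed 0.209% of tested genes. Unadjusted, the same number, 5 of 10, had p under 0.05 (8.39% of tested genes), of which 4 were lower (4.80%) and 1 higher (3.59%). The higher one was Acr, which passed the filter through saline libraries, and without it 4 of 9 genes were under that p. Of the 12 other tested genes within 500 kb of Shank3, 0 were. The 3 groups without overlap were again those of Rabl2 and Mapk11 (lower, 6.36% of tested genes) and Acr (higher, 6.26%), together 12.6% of tested genes. A lower level of any size was seen for 8 of 10 genes and for 48.7% of tested genes, and the median log2 fold change of the 10 was -0.18.

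Rabl2 averaged 17.2 ± 0.373 CPM in saline mice and 24.6 ± 2.17 CPM in wild-type mice, with a fold of 0.697, a 95% interval from 0.594 to 0.818 and an edgeR adjusted p of 0.190. Mapk11 averaged 63.9 ± 7.01 CPM in saline mice and 86.2 ± 8.41 CPM in wild-type mice, with a fold of 0.740, an interval from 0.643 to 0.851 and an edgeR adjusted p of 0.224. Without wild-type replicate 3, where 0.369% of tested genes passed, both passed at edgeR adjusted p of 0.0343 for Rabl2 and 0.0158 for Mapk11. Without saline replicate 2 as well, where 0.675% of tested genes passed, the adjusted p was 0.0241 for Rabl2 and 0.0123 for Mapk11. Dennd6b was at -0.33 ± 0.12 on the log2 scale (SE, adjusted p = 0.460), and at -0.20 without wild-type replicate 3. Leaving out saline replicate 2 as well gave -0.10. Tubgcp6 was at -0.23 ± 0.09 (SE, adjusted p = 0.466). Acr was at 1.41 ± 0.47 (SE, adjusted p = 0.417), with the same limit of its counts. Mapk12 was at -0.45 ± 0.31 (SE) and at -0.11 without saline replicate 2. Arsa was at -0.12 ± 0.10 (SE) and at -0.047 without saline replicate 2. Mapk8ip2 was at -0.02 ± 0.08, Plxnb2 at 0.01 ± 0.11 and Sbf1 at -0.02 ± 0.07 (log2 fold changes, SE).

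The third comparison asks what romidepsin did to these genes in Shank3-deficient mice. Romidepsin blocks class I histone deacetylases, enzymes that remove acetyl groups from histones. In edgeR's test 0 of the 10 passed, as did 0% of tested genes, and DESeq2 and limma-voom also passed 0 of the 10. Unadjusted, 1 of the 10 had p under 0.05 (3.26% of tested genes): Mapk12, which was higher (1.73%), while 0 of the 10 were lower at that level (1.53%). All romidepsin libraries were above all saline libraries for Mapk11 and Mapk12 (10.8% of tested genes) and below for Acr (10.2%), 20.9% of tested genes in either direction. Acr passed the filter only through 2 libraries of the saline group, the higher one here, so its lack of overlap gives no support to a difference. In this comparison 4 of the 10 were lower at any size (51.0% of tested genes), and their median log2 fold change was 0.04.

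Mapk12 averaged 5.99 ± 0.029 CPM in romidepsin mice (SD, n = 2) and 3.61 ± 1.98 CPM in saline mice (SD, n = 3), a fold of 1.68 with a 95% interval from 1.02 to 2.79 (edgeR adjusted p = 1.00). The saline spread sets this value: in place of 0.75, the log2 fold change was 0.42 when saline replicate 2 was left out and 1.10 when saline replicate 3 was. The romidepsin SD of Mapk12 rests on 61 and 58 reads and is smaller than counting noise. Mapk11 averaged 72.2 ± 0.800 CPM with romidepsin and 63.9 ± 7.01 CPM with saline, a fold of 1.13 with an interval from 0.966 to 1.33. Its highest saline library, at 71.2 CPM, was just under the lower romidepsin library at 71.6 CPM. Arsa averaged 39.7 ± 3.05 CPM with romidepsin and 34.1 ± 3.72 CPM with saline, a fold of 1.17 with an interval from 0.988 to 1.38. Rabl2 was at 17.5 ± 0.172 CPM with romidepsin and 17.2 ± 0.373 CPM with saline, so the 2 groups differed by less than the spread in the saline group, and the interval of the fold ran from 0.848 to 1.23. The remaining log2 fold changes were 0.10 ± 0.10 for Tubgcp6, 0.05 ± 0.13 for Dennd6b, -0.02 ± 0.09 for Mapk8ip2, -0.05 ± 0.08 for Sbf1, -0.10 ± 0.13 for Plxnb2 and -0.58 ± 0.50 for Acr (SE). Hdac10, a deacetylase gene between Tubgcp6 and Mapk12, averaged 13.1 ± 0.261 CPM with romidepsin and 13.7 ± 2.48 CPM with saline.

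The fourth comparison sets romidepsin-treated mice against wild-type mice, and so shares libraries with each of the others. By edgeR 0 of the 10 passed (0.00675% of tested genes), and 0 by DESeq2 and by limma-voom. Unadjusted, 2 of the 10 had p under 0.05 (3.24% of tested genes), both lower (1.78%) and 0 higher (1.46%). All romidepsin libraries were below all wild-type libraries for 5 genes, Rabl2, Mapk11, Dennd6b, Tubgcp6 and Sbf1 (9.08% of tested genes), and above for Acr and Mapk12 (9.34%), 18.4% of tested genes in either direction. The romidepsin libraries were close to each other for Rabl2, Mapk11, Dennd6b and Tubgcp6. For Sbf1 they were at 240.2 and 248.2 CPM, with the lowest wild-type library at 249.4 CPM. The folds of these 5 genes ranged from 0.712 to 0.952. A lower level of any size was seen for 7 of 10 genes, as for 50% of tested genes, and the median log2 fold change was -0.08. Rabl2 averaged 17.5 ± 0.172 CPM with romidepsin and 24.6 ± 2.17 CPM in wild type, a fold of 0.712 with an interval from 0.594 to 0.854 (edgeR adjusted p = 0.999). Mapk11 had a fold of 0.838, with an interval from 0.716 to 0.980 (edgeR adjusted p = 0.999). Rabl2 thus had folds of 0.712 with romidepsin and 0.697 with saline, each against the same wild-type libraries. Mapk11 had folds of 0.838 with romidepsin and 0.740 with saline, and the direct comparison of the treatments did not pass the test for either gene.

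The other genes of the window were set beside the 10. They lie among the 10 in the same stretch, and the 10 were chosen with earlier results known. Setting them side by side therefore cannot show how local the differences were. Within 500 kb of Shank3 the tables held 24 further genes, of which 12 passed the filter. None of these 12 was free of overlap between Shank3-deficient and wild-type libraries, and 0 had an unadjusted p under 0.05 or an adjusted one by edgeR. Their log2 fold changes were negative for 8 and positive for 4, with a median of -0.04. The smallest p among them belonged to Panx2, the gene of a pannexin channel, at 101 ± 9.86 CPM in Shank3-deficient libraries and 112 ± 5.58 CPM in wild-type libraries (edgeR adjusted p = 0.807). Sco2, needed for copper delivery to cytochrome c oxidase, averaged 5.65 ± 0.867 CPM in Shank3-deficient and 6.67 ± 0.772 CPM in wild-type libraries. Hdac10 averaged 13.4 ± 1.79 CPM in Shank3-deficient and 14.6 ± 2.16 CPM in wild-type libraries. Lmf2, a lipase maturation factor gene, averaged 14.8 ± 1.59 CPM in Shank3-deficient and 16.1 ± 3.21 CPM in wild-type libraries. For each of these genes the libraries of the 2 groups overlapped.

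By distance from Shank3, the 12 tested genes up to 250 kb had a median log2 fold change of -0.03 and 9 were lower in Shank3-deficient mice. The 10 genes from 250 to 500 kb had a median of -0.12 and 8 were lower. From 500 kb to 1 Mb the median of 9 genes was -0.03, from 1 to 5 Mb that of 35 genes was -0.03, and beyond 5 Mb that of 515 genes on the same chromosome was 0.00. The share of genes without overlap was 16.7%, 10%, 0%, 5.71% and 4.85% in these 5 distance classes, and the first 2 classes hold Rabl2, Acr and Mapk11. The 16.7% stands for 2 of 12 genes, of which Acr passed the filter only through 2 saline libraries, so the share closest to Shank3 rests on Rabl2 alone. The classes up to 1 Mb hold 9 to 12 tested genes each.

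**Figure D3:**
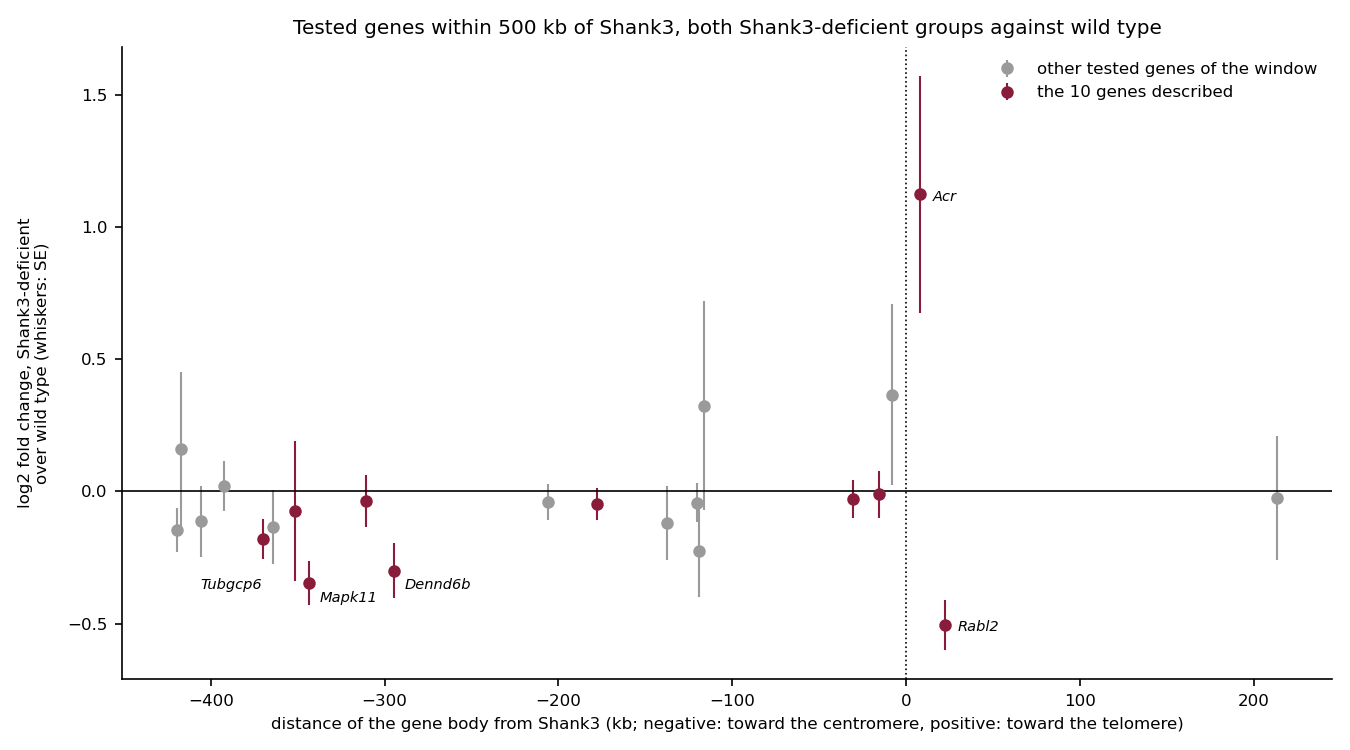
Log2 fold change of both Shank3-deficient groups against wild type (y axis, whiskers are SE) for the tested genes within 500 kb, by distance from Shank3 in kb (x axis, negative toward the centromere). Rabl2 at -0.505 and Acr at 1.12 lie at 22.3 and 8.07 kb on the telomeric side, while Dennd6b, Mapk11 and Tubgcp6 lie at 295 to 370 kb on the other side.

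Genes that work with the 10, or are related to them, were listed by pathway. In these 6 lists 0 genes passed edgeR's test in any of the 4 comparisons. Values below are for both Shank3-deficient groups against wild type. Of 25 tested genes of the p38 and JNK pathways, 11 were higher and 14 lower at any size, with a median log2 fold change of -0.01. Dusp1, a phosphatase that switches off p38 and JNK, was higher in every Shank3-deficient library, at 45.1 ± 9.54 CPM against 34.0 ± 1.27 CPM in wild type (edgeR adjusted p = 0.644). Map2k7, a kinase that activates JNK, averaged 71.5 ± 3.52 CPM in Shank3-deficient and 78.6 ± 3.17 CPM in wild-type libraries. Mapk14, which codes for p38 alpha, the nearest paralog of Mapk11, averaged 105 ± 2.15 CPM in Shank3-deficient and 109 ± 9.85 CPM in wild-type libraries, and Mapk13 did not pass the filter on low counts.

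In a list of 14 genes set beside Rabl2, 9 were higher and 5 lower, with a median of 0.06. The list held genes of intraflagellar transport complex B, Cep19, Cep350 and Fgfr1op. It also held Rabl3 and Rabl6, which are RAB-like genes and not members of that complex, and both were among the lower ones. Ift27, a small GTPase of that complex, averaged 12.2 ± 1.05 CPM in Shank3-deficient and 10.7 ± 2.21 CPM in wild-type libraries. Ift46, a further subunit, averaged 32.2 ± 2.26 CPM in Shank3-deficient and 29.5 ± 2.88 CPM in wild-type libraries. A list of plexin B receptors and class 4 semaphorins, together with Met, Arhgef11, Arhgef12, Rnd1 and Rras, held 13 genes. Of these, 2 were higher and 11 lower, with a median of -0.03. Sema4d, the ligand of plexin B1, averaged 59.7 ± 7.56 CPM in Shank3-deficient and 66.1 ± 1.48 CPM in wild-type libraries. Rnd1, a GTPase that binds plexins, averaged 26.5 ± 3.70 CPM in Shank3-deficient and 23.5 ± 2.73 CPM in wild-type libraries. Plxnb1, the nearest paralog of Plxnb2, averaged 126 ± 14.1 CPM in Shank3-deficient and 129 ± 22.4 CPM in wild-type libraries. All of these ranges overlapped.

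Of 11 gamma-tubulin complex genes, 6 were higher and 5 lower, with a median of 0.01. Mzt2, a small subunit that helps recruit the complex, was higher in every Shank3-deficient library, at 14.3 ± 2.09 CPM against 11.3 ± 0.557 CPM in wild type (edgeR adjusted p = 0.745). Cdk5rap2, a centrosomal protein that binds the complex, averaged 11.2 ± 0.781 CPM in Shank3-deficient and 13.4 ± 3.83 CPM in wild-type libraries. Of 20 myotubularins and DENN proteins, 7 were higher and 13 lower, with a median of -0.02. Mtm1, a phosphoinositide phosphatase, was lower in every Shank3-deficient library, at 6.76 ± 0.367 CPM against 8.72 ± 1.75 CPM in wild type (edgeR adjusted p = 0.755). Mtmr4, of the same family, averaged 106 ± 8.36 CPM in Shank3-deficient and 116 ± 3.28 CPM in wild-type libraries. Sbf2, the paralog of Sbf1, averaged 67.1 ± 2.87 CPM in Shank3-deficient and 72.0 ± 13.8 CPM in wild-type libraries.

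Of 12 genes of sulfatide turnover and lysosomal sulfatases, 7 were higher and 5 lower, with a median of 0.06. Galns, a lysosomal sulfatase, averaged 7.72 ± 1.35 CPM in Shank3-deficient and 6.25 ± 0.767 CPM in wild-type libraries. Galc, which degrades galactosylceramide, the product of Arsa, averaged 27.4 ± 1.49 CPM in Shank3-deficient and 30.4 ± 1.90 CPM in wild-type libraries. Neither pair of groups was free of overlap. In the comparison of romidepsin with saline, Dusp16, a phosphatase of JNK and p38, averaged 13.5 ± 2.01 CPM with romidepsin and 17.9 ± 1.92 CPM with saline. Dusp1 averaged 38.7 ± 0.800 CPM with romidepsin and 49.4 ± 10.7 CPM with saline, and the edgeR adjusted p was 1.00 for both genes.

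Markers of other cell types in the slices were summed per library, and all 10 marker lists overlapped between Shank3-deficient and wild-type libraries. Markers of oligodendrocytes, where Arsa acts on myelin lipids, summed to 3221 to 3696 CPM with romidepsin, 2912 to 5382 CPM with saline and 2988 to 4848 CPM in wild type. All 8 of them were lower on average in Shank3-deficient mice at any size, with a median log2 fold change of -0.18. Against wild type the median was -0.28 with romidepsin, with all 8 lower, and -0.04 with saline, with 7 lower and 1 higher. Markers of endothelial and mural cells summed to 309.5 to 357 CPM with romidepsin, 243 to 323 CPM with saline and 315 to 391 CPM in wild type, and 8 of 12 were lower, with a median of -0.17. Markers of meninges and fibroblasts summed to 122 to 177 CPM with romidepsin, 101 to 237 CPM with saline and 97.8 to 161 CPM in wild type, and all 8 were higher on average, with a median of 0.46. Markers of microglia summed to 558 to 634.5 CPM with romidepsin, 505.5 to 577 CPM with saline and 463 to 645.5 CPM in wild type. All 8 microglia markers were higher on average, with a median of 0.09. No listed marker was at 0 in all libraries. In the comparison of romidepsin with saline the sums of 3 lists were higher in both romidepsin libraries than in every saline library. Among single genes, 20.9% of all tested genes lacked overlap in this comparison. Markers of excitatory neurons summed to 7065 to 7186 CPM with romidepsin and 6428 to 6828 CPM with saline. Those of inhibitory neurons summed to 1069 to 1072 CPM with romidepsin and 909 to 1030 CPM with saline, and those of oligodendrocyte precursors to 259 to 271 CPM with romidepsin and 197 to 249 CPM with saline. Markers of olfactory bulb and septum were lower in both, at 7.19 to 8.75 CPM with romidepsin and 9.63 to 35.9 CPM with saline. Inhibitory neuron sums in both romidepsin libraries also lay above those of every wild-type library, at 921 to 967 CPM, and all 8 of these markers were higher on average. The part of cell makeup in the levels of the 10 genes was not tested.

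**Figure D4:**
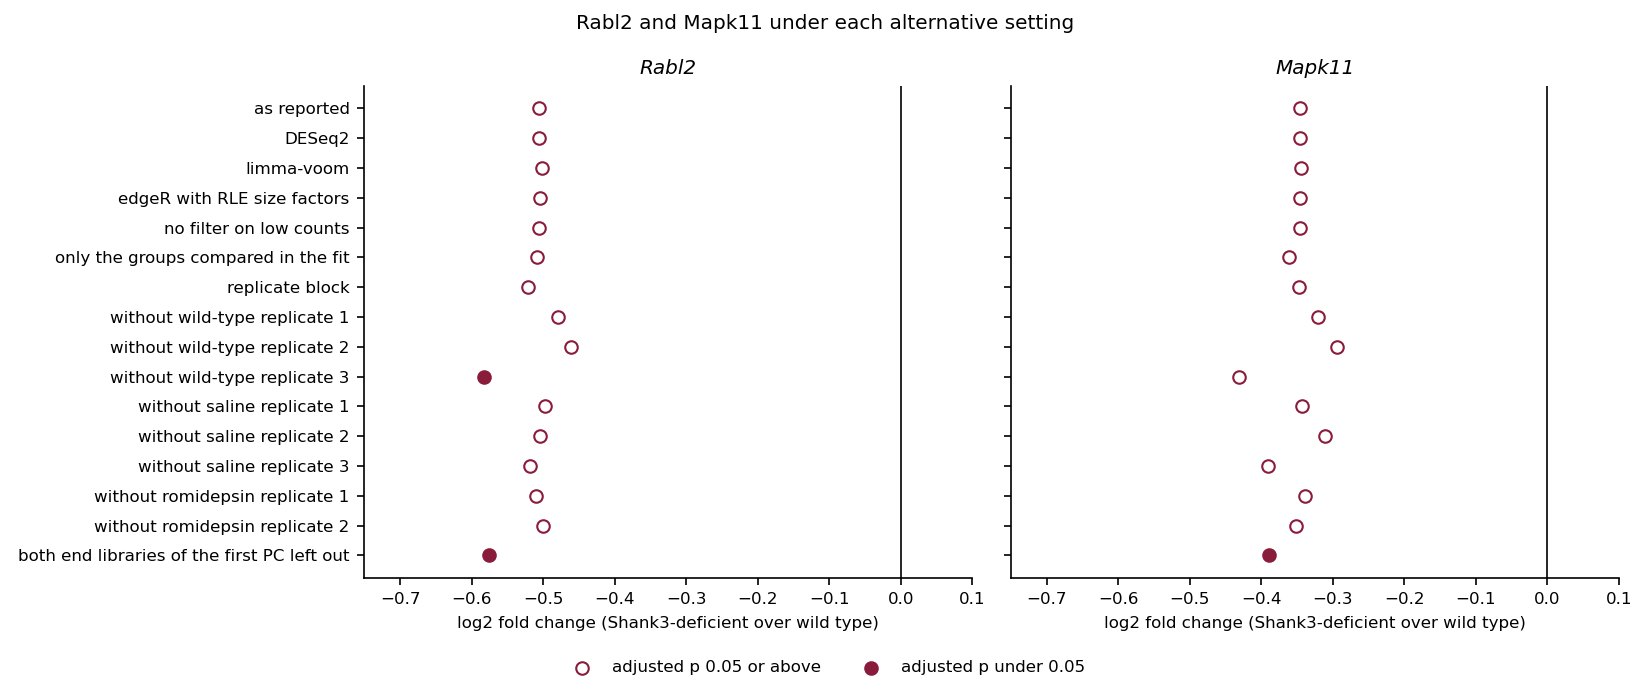
Log2 fold change of Rabl2 (left) and Mapk11 (right) in both Shank3-deficient groups against wild type (x axes, log2) under each alternative setting (y axis); filled points have an adjusted p under 0.05 and open points do not. Rabl2 stays between -0.58 and -0.46 and Mapk11 between -0.43 and -0.29, and the filled points are settings without wild-type replicate 3.

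With every setting in view, Rabl2 and Mapk11 kept a negative log2 fold change against wild type in all 15 alternatives of each comparison with wild-type libraries. DESeq2 passed 0.0608% of tested genes with both Shank3-deficient groups against wild type, and neither gene was among them. With both Shank3-deficient groups against wild type, Acr kept a positive fold change in the 12 settings in which it passed the filter. In that comparison Dennd6b, Tubgcp6 and Sbf1 stayed negative in all 15, while Arsa, Mapk8ip2, Mapk12 and Plxnb2 changed sign in at least 1. Sbf1 changed sign in 2 of 15 settings with saline against wild type.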

How the data were processed

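The authors deposited raw, unnormalized read counts per gene symbol in a separate table for each library. Per the submitters' processing notes, the tools were bcl2fastq 2.17.1.14, TopHat2 2.1.1 and HTSeq 0.6.1 with the genome build mm10 (GRCm38). The sources used here do not give the gene annotation or the strand setting. HTSeq summary entries were left out of library sizes. In the 7 libraries that list them, 32.4% to 35.3% of counted alignments fell on genes. Depth was 7783537 to 15156318 counts per library.

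Counts were compared with edgeR 4.0.16 in R 4.3.3: filterByExpr (14809 genes tested, 9611 removed), TMM scaling and a quasi-likelihood fit, robust, with 1 coefficient for each group over all 8 libraries. Its common biological coefficient of variation was 9.33%. Both Shank3-deficient groups against wild type weights the 2 groups equally, while means and SDs are over libraries. Intervals are at 95%, and the threshold was a p under 0.05 after Benjamini-Hochberg adjustment over all tested genes. On simulated counts for that comparison, with 200 of 14809 genes changed, 67% of 1.5-fold and 91% of 2-fold changes were called, and 8.67% of calls were false. In the data themselves 1 gene passed in that comparison, so the adjusted threshold was easier to reach in the simulation. The simulated shares therefore do not give the chance of calling such a change in these libraries. Coordinates and promoters are RefSeq GRCm38.p6, and exon lengths and overlaps are GENCODE M21. The 10 genes and all lists were chosen with earlier results of these data known. The rule for naming takes all 10 genes, Shank3, the 5 further window genes with the smallest p in both Shank3-deficient groups against wild type (Hdac10, also named in its own right, is among them), genes overlapping one of the 10, the 2 genes with the smallest p of a list, and the nearest paralogs. Replicates of a group differed by 3.14 to 14.2 times the sampling variance, so none was a repeat sequencing of the same library. These values cannot tell separate animals from separate preparations of the same animal. Alternatives were DESeq2 1.42.0, limma-voom (limma 3.58.1), RLE scaling, no filter, only the groups compared, a replicate block, each library left out, and, chosen after seeing the data, both end libraries of the first principal component left out.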

Additional observations from a re-analysis of the deposited data

How the results depend on the processing

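Rabl2, Mapk11, Dennd6b and Tubgcp6 kept a negative log2 fold change in both Shank3-deficient groups against wild type under all 15 alternatives, and RLE scaling changed no direction among the 10 genes. Genes passing over the whole table depended on the setting. With DESeq2, 9 genes passed with both Shank3-deficient groups against wild type, 31 with saline against wild type (1 of the 10, Mapk11), 2 with romidepsin against saline and 4 with romidepsin against wild type. Without a filter, 12 passed with saline and 2 with romidepsin against wild type, and with only the groups compared 2 passed with saline against wild type. Without both end libraries of the first principal component, an alternative chosen after seeing the data, 68, 99 and 14 passed with both groups, saline and romidepsin against wild type, of which 2, 2 and 0 were among the 10. In that setting Arsa was at 0.068, Mapk12 at 0.12 and Plxnb2 at 0.14 with both groups, Sbf1 at 0.016 with saline and Plxnb2 at 0.079 with romidepsin, each against wild type, and Dennd6b at -0.037 in romidepsin against saline.

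Deviations from group means of same-numbered saline and wild-type libraries correlated with r of -0.175, 0.0185 and -0.0367. For same-numbered romidepsin libraries r was 0.103 and 0.0595 with saline, and -0.0326 and 0.0822 with wild type. Libraries of different number reached 0.236 (saline 1 with wild type 3). No sign of pairing by number was seen, but such values cannot exclude a shared litter or batch. With a replicate block 3, 4 and 0 genes passed with both groups, saline and romidepsin against wild type, Arsa was at 0.015 and Plxnb2 at 0.021 with both groups, and Plxnb2 at 0.014 with romidepsin, against wild type.

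With each library left out in turn, genes passing ranged from 1 to 11 with both groups, 1 to 54 with saline and 0 to 3 with romidepsin against wild type, and 0 to 3 in romidepsin against saline. The 11 and the 54 were reached without wild-type replicate 3. Of the 10, 0 to 1 passed with both groups and 0 to 2 with saline. Log2 fold changes that changed sign ran as follows. With both groups against wild type, Arsa ran from -0.051 to 0.027, Mapk8ip2 from -0.10 to 0.044, Mapk12 from -0.25 to 0.095 and Plxnb2 from -0.13 to 0.12. With saline against wild type, Mapk8ip2 ran from -0.092 to 0.055, Plxnb2 from -0.084 to 0.17 and Sbf1 from -0.052 to 0.0056. With romidepsin against wild type, Mapk8ip2 ran from -0.12 to 0.032 and Plxnb2 from -0.18 to 0.071, and Dennd6b ran from -0.040 to 0.14 in romidepsin against saline. Without saline replicate 2, Mapk11 was at 0.11 and Tubgcp6 at 0.046 in romidepsin against saline, and without wild-type replicate 3 Dennd6b was at -0.15 in romidepsin against wild type. The cause was not tested. Where an arm keeps 1 library, it is assumed to vary like the other groups. Counts limit Acr, with 3 to 21 reads per library, and Mapk12.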
